A study of Drosophila melanogaster with 2 samples.

Results

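Nuclear genes that build the mitochondrial ribosome, the respiratory chain and the mitochondrial protein import machinery were followed after a topical spray of ethanol on adult Drosophila melanogaster. Members were taken by current gene symbol (names beginning mRpL, mRpS, ND-, COX with a digit, UQCR-, ATPsyn, Sdh, Cyt-c, Tim or Tom with a digit, mtSSB, mtTF or mt:), a rule that reads no measured value but was chosen with earlier results of these data known. The rule found 15 of the 2377 genes that could be named. They were 3 proteins of the mitochondrial ribosome, 3 subunits of complex I, 2 of complex II, 1 of complex III, 3 of complex IV, 1 of complex V and 2 components of protein import. No gene of the small ribosomal subunit, no cytochrome c, mtSSB or mtTF gene and no gene encoded in mitochondrial DNA was found under a symbol of its own. A further 4 spots whose annotation joined a matching symbol with another gene were left out.

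RNA was extracted from about 240 adult females of the wild-type strain Oregon-R, 4 to 10 days old, per extract. The treated flies received 2 mL of 99% ethanol and the control flies 2 mL of distilled water, each as a mist from a Potter tower, a chamber for spraying insects evenly. Each of 2 spotted 2-colour arrays compared 1 ethanol extract with 1 water extract. Ethanol RNA carried Cy3 on array 1 and Cy5 on array 2, so dye and replicate were exchanged together. Sampling came 4 h after the spray by the series text and 6 h by the label of replicate 1. All extracts pooled many flies, and the series text calls the replicates biological.

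Mitochondria hold their own small genome, but almost all of their proteins are encoded in the nucleus and imported. The mitochondrial ribosome translates the few respiratory chain subunits that the mitochondrial genome still encodes. Complexes I to IV pass electrons from NADH and succinate to oxygen and most of them pump protons, and complex V uses the proton gradient to make ATP. Flight muscle is known for its dense mitochondria. Several nuclear respiratory chain genes of Drosophila also have duplicates whose symbols end in L, for "like", and many such duplicates are known for expression biased to the testis.

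Every value below is the ratio that the authors deposited, read as log2, so that 0 is equality of ethanol and water. Neither the log base nor which RNA stands in the numerator is stated, and values are called positive or negative rather than higher in ethanol or in water. Both array titles name water before ethanol, and both labels list the ethanol extract as channel 2. These labels do not say how the ratio was formed. Signs were kept as deposited on both arrays. The main test of every gene was repeated with array 2 turned in sign, which is the right coding if the ratio follows the dyes. Tests under alternative processing used the deposited signs only, apart from the one that kept duplicate spots. A ratio gives no level, so it was not possible to compare how strongly the genes were expressed, or to check from markers which tissues the extracts held. In RNA from many tissues, fewer cells of a type and less RNA per cell cannot be told apart. A permutation of signs over 2 arrays cannot go below a p of 0.5, so the tests borrow the spread of all genes through limma.

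No mitochondrial gene passed the test between ethanol and water. By limma with Benjamini-Hochberg adjustment over 2377 genes, 0 of the 15 members passed an adjusted p of 0.05, against a background of 0% of all genes, under either coding of array 2. At an unadjusted p under 0.05, limma counted 2 of the 15 members, mRpL13 and SdhCL, where 5.72% of all genes passed. With robust eBayes, which lets a gene of extreme spread keep its own variance, mRpL13 had a limma p of 0.335. With array 2 turned the ordinary fit counted 1, mRpL13, against 4% of all genes. None of the 15 reached 1.5-fold on both arrays, either with one sign (0.126% of all genes) or with opposite signs (0.126%). The 95% confidence interval of a member's mean reached a median of 0.41 to either side, and for the 14 members other than mRpL13 the intervals lay between -0.77 and 0.82.

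**Figure D1:**
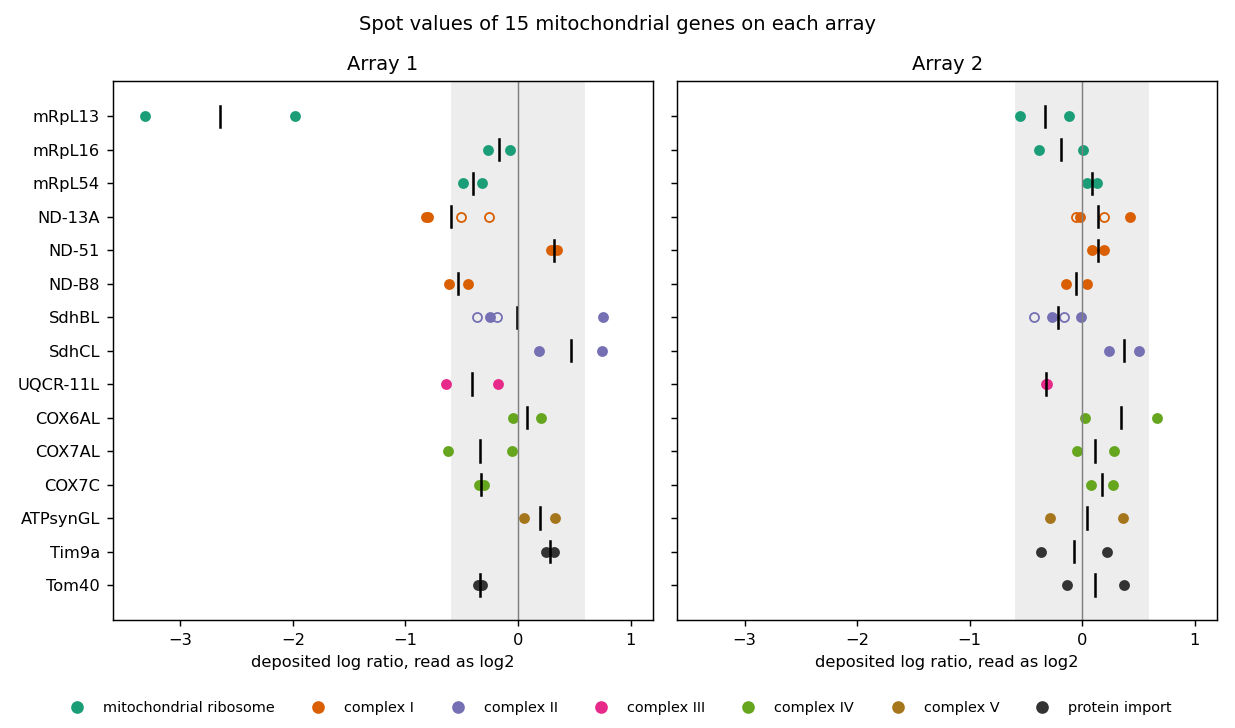
Deposited log ratios (read as log2, horizontal axis) of every spot of the 15 genes on array 1 (left) and array 2 (right). Points are spots coloured by complex, open points are the other clone of ND-13A and SdhBL, black bars are gene values and the grey band spans less than 1.5-fold; apart from mRpL13 at -2.65 on array 1, gene values lie between -0.60 and 0.47 on array 1, and all 15 lie between -0.34 and 0.37 on array 2.

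The 17 clones of these genes were each printed as a pair of adjacent spots, which gives the technical error within an array. On array 1 both spots had the same sign in 15 of the 17 clones, or 88.2%, against 71.1% of the 2833 named clones. On array 2 the count was 9 of 17, or 52.9%, against 53.2% of named clones. The median difference between the 2 spots was 0.192 on array 1 and 0.272 on array 2. Gene values on array 2 had a median size of 0.138, below that difference, but the size of a mean and a difference between spots are unlike measures. Over all genes the median size on array 2 was 0.174, also below the median spot difference of 0.33 over named clones.

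Among the proteins of the large subunit of the mitochondrial ribosome, all 3 were negative on array 1 and 2 of the 3 on array 2. mRpL13, whose bacterial relative is a core protein of the large subunit, had the widest ratio of the 15 genes. Its spots were at -1.98 and -3.31 on array 1 and at -0.56 and -0.11 on array 2. All 4 spots were negative, but the gene value of -2.65 on array 1 stood far from the -0.34 on array 2. The mean was -1.49 ± 1.63 (SD, n = 2), with a 95% interval from -2.23 to -0.75 and a limma adjusted p of 0.27, or 0.94 with array 2 turned (mean -1.16). With robust eBayes the interval ran from -8.94 to 5.96. Only 0.252% of genes lay lower on array 1, while 9.97% lay lower on array 2. The next spot in table order, from an unnamed clone, was at -4.20 on array 1 and 0.32 on array 2, and the partner spot of that clone was at 0.27 on array 1. The 2 spots on the other side, from the clone of mil, were at 0.23 and 0.27 on array 1. The extreme values on array 1 thus formed a run of 3 spots across the border of 2 clones. The part of that run in the value of mRpL13 was not tested.

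The remaining ribosomal members had means closer to 0. mRpL16, like mRpL13 a relative of a bacterial large subunit protein, had spots at -0.26 and -0.07 on array 1 and at -0.39 and 0.01 on array 2. The gene values of -0.17 and -0.19 were nearly the same on the arrays, and the mean was -0.18 ± 0.02 (limma adjusted p = 0.996). mRpL54, a large subunit protein that bacterial ribosomes lack, had spots at -0.49 and -0.32 on array 1 and at 0.04 and 0.13 on array 2. The gene values of -0.40 and 0.085 had opposite signs, as had every spot, and the mean was -0.16 ± 0.35, or -0.24 with array 2 turned.

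Complex I, which oxidises NADH and passes its electrons to ubiquinone, was represented by 1 core and 2 accessory subunits that did not share a direction. ND-51, the flavoprotein that binds NADH and takes up its electrons, had spots at 0.29 and 0.35 on array 1 and at 0.19 and 0.09 on array 2. All 4 spots were positive, with a mean of 0.23 ± 0.13 and a 95% interval from -0.18 to 0.63. The accessory subunit ND-B8 had spots at -0.45 and -0.61 on array 1 and at 0.04 and -0.15 on array 2. Its gene value of -0.53 on array 1 was lower than in all but 3.96% of genes, and that on array 2 was -0.05, for a mean of -0.29 ± 0.34.

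The other accessory subunit, ND-13A, which in other animals is a zinc-binding protein needed late in assembly of the complex, had 2 clones. The spots of its first clone were at -0.82 and -0.80 on array 1 and at -0.02 and 0.43 on array 2. Its second clone was at -0.26 and -0.51 on array 1 and at -0.05 and 0.19 on array 2. All 4 spots were negative on array 1, where the gene value was -0.60 and 2.82% of genes lay lower. On array 2 each clone held a negative and a positive spot, and the gene value was 0.14. The mean was -0.23 ± 0.52, or -0.37 with array 2 turned (limma adjusted p = 0.996 and 0.94). Counted on array 1 alone, ND-13A and mRpL13 were the 2 members of 1.5-fold or more, where 6.14% of all genes were. Both were on the negative side, where 2.94% of all genes reached that size. On array 2 alone there were 0 members, against 4.75% of all genes.

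Complex II, succinate dehydrogenase, links the tricarboxylic acid (TCA) cycle to the chain and was represented only by its "like" paralogs. SdhCL, a paralog of the membrane anchor subunit SdhC, had spots at 0.75 and 0.19 on array 1 and at 0.50 and 0.23 on array 2. All 4 were positive, and the gene values of 0.47 and 0.37 placed it above 93.7% of genes on array 1 and above 91.1% on array 2. The mean was 0.42 ± 0.07 with a 95% interval from 0.01 to 0.82, a limma p of 0.0436 and an adjusted p of 0.82. With array 2 turned the mean was 0.05 (limma adjusted p = 0.99). SdhCL and mRpL13 were the 2 members that reached 0.322 in size on both arrays with one sign, which 3.45% of all genes did. With array 2 turned their signs were opposite and 0 members did, against 2.78% of all genes.

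SdhBL, a paralog of the iron-sulfur subunit SdhB, had 2 clones that did not agree on array 1. The first clone had spots at -0.25 and 0.76 on array 1, a difference of 1.00, and at -0.01 and -0.27 on array 2. The second clone was at -0.19 and -0.37 on array 1 and at -0.43 and -0.16 on array 2. Of the 8 spots 7 were negative, and a single spot brought the gene value on array 1 to -0.01 beside -0.22 on array 2. The mean was -0.12 ± 0.15, and it was -0.29 from the second clone alone.

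Complex III, which passes electrons from ubiquinol to cytochrome c, had 1 member. UQCR-11L, a paralog of the subunit UQCR-11, had spots at -0.64 and -0.17 on array 1 and at -0.31 and -0.32 on array 2. All 4 spots were negative, with gene values of -0.41 and -0.32. Of all genes, 7.78% lay lower on array 1 and 11.1% on array 2. The mean was -0.36 ± 0.06 with a 95% interval from -0.77 to 0.04 (limma adjusted p = 0.93), and -0.04 with array 2 turned.

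Complex IV, cytochrome c oxidase, reduces oxygen to water, and its 3 members are all small nuclear subunits. COX7C, the only one of them without a "like" symbol, had spots at -0.30 and -0.35 on array 1 and at 0.08 and 0.27 on array 2. Both arrays agreed within themselves and opposed each other, so the mean was -0.08 ± 0.35 as deposited and -0.25 with array 2 turned (limma adjusted p = 0.996 and 0.94). COX7AL, a paralog of COX7A, had spots at -0.06 and -0.62 on array 1 and at 0.28 and -0.05 on array 2, for a mean of -0.11 ± 0.32. COX6AL, a paralog of COX6A, had spots at -0.04 and 0.20 on array 1 and at 0.02 and 0.67 on array 2. Its mean was 0.21 ± 0.19 as deposited and turned to -0.13 with array 2 turned, since the larger value came from array 2.

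Complex V, the ATP synthase, had 1 member, ATPsynGL, a paralog of the subunit ATPsynG. Its spots were at 0.06 and 0.33 on array 1 and at 0.36 and -0.28 on array 2. The spots on array 2 lay on both sides of 0 and differed by 0.644, the widest difference of the 17 clones on that array, and the mean was 0.11 ± 0.11.

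Of the import genes, Tom40 forms the channel through which nearly all precursor proteins cross the outer membrane, and Tim9a is a small chaperone of the intermembrane space that escorts hydrophobic precursors. Tom40 had spots at -0.35 and -0.32 on array 1 and at 0.37 and -0.14 on array 2. Tim9a had spots at 0.25 and 0.32 on array 1 and at -0.36 and 0.22 on array 2. On array 1 these genes stood on opposite sides of 0 with closely agreeing spots, and on array 2 the spots of each had mixed signs. The means were -0.11 ± 0.32 for Tom40 and 0.10 ± 0.25 for Tim9a.

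**Figure D2:**
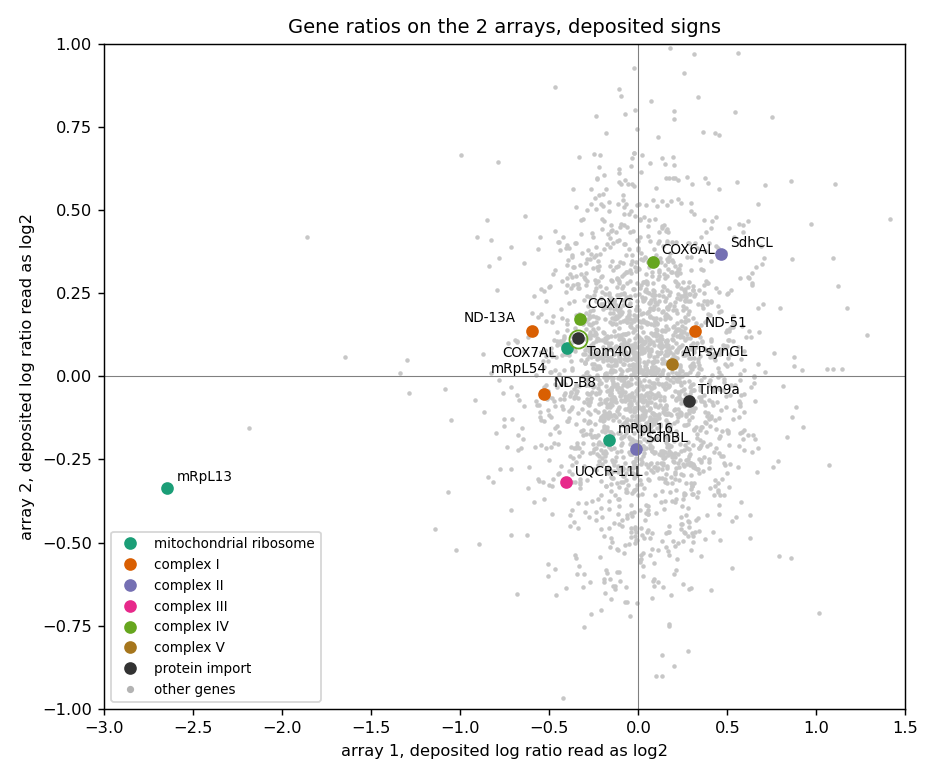
Gene values on array 1 (horizontal axis) and array 2 (vertical axis), as deposited log ratios read as log2. Coloured points are the 15 genes by complex (the large open circle is COX7AL, beside Tom40), grey points are other genes, and 18 of the 2377 genes lie outside the axes; 9 of the 15 lie in the quadrants where both arrays have one sign.

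Across the 15 genes, 9 had one sign on both arrays, or 60%, against 50.7% of all genes. Of these, 5 were negative on both, with a background of 24.1%, and 4 were positive on both, with a background of 26.6%. The other 6 had opposite signs, against 49.3% of all genes. Counted over every spot, 4 members (mRpL13, ND-51, SdhCL and UQCR-11L) had one sign over both arrays, which 18.3% of all genes did. COX7C and mRpL54 had one sign within each array and opposite signs between them, against 17.2% of all genes. The median of the members' means was -0.11 as deposited and -0.13 with array 2 turned, beside 0.0066 and 0.0023 over all genes.

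On array 1, 10 of the 15 were negative, against 49% of all genes, with a median of -0.33 beside 0.0089 over all genes. Their median size was 0.339, against 0.188 over all genes. On array 2, 6 of the 15 were negative, against 48.5% of all genes, with a median of 0.085 beside 0.010. With array 2 turned, 9 of the 15 were negative there, against 51.5% of all genes, with a median of -0.085. The median without mRpL13 was -0.25 on array 1 and 0.099 on array 2. The 9 genes without a "like" symbol had a median of -0.34 on array 1, where 7 of 9 were negative, and 0.085 on array 2, where 4 of 9 were. The 6 paralogs with such a symbol had medians of 0.034 and 0.076, with 3 of 6 and 2 of 6 negative. No test was made of these medians.

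The medians of the muscle markers and of the neuronal markers lay on the same side of 0 as that of the genes without a "like" symbol on each array. So did the medians of all 17 markers together, at -0.086 and 0.069. The median of the fat body markers lay on the other side on each array, at 0.24 and -0.40. The testis and male gland markers, with medians of 0.24 and 0.20, shared the side on array 2 only. Of 5 measured muscle genes, 4 were negative on array 1, against 49% of all genes, and 4 positive on array 2, against 51.5%. Their medians were -0.47 and 0.12, with ranges of -0.85 to 1.29 and -0.28 to 0.47. Tm2, a tropomyosin, was the exception on array 1, at 1.29, and TpnC73F, a troponin C, was the exception on array 2, at -0.28. The 3 neuronal genes had medians of -0.086 and 0.26. Of these, 2 of 3 were negative on array 1 and 2 of 3 positive on array 2, against the same 49% and 51.5% of all genes. The part of muscle or neuronal RNA in the ratios of the mitochondrial genes was not tested. Testis and male gland genes, listed because of the "like" paralogs, were positive on both arrays in 3 of 4 measured, against 26.6% of all genes. Their values lay between -0.38 and 0.66 on array 1 and between -0.45 and 0.44 on array 2. All extracts were of females, which have no testis or male glands, so what these 4 ratios measure is uncertain. The part of background or of other transcripts in them was not tested. The same limit holds for any "like" paralog expressed only in the testis. The male germline gene Mst84B was at -0.42 ± 0.05. The fat body genes ranged from -0.72 to 0.40 on array 1 (4 measured) and the neuronal genes from -0.11 to 0.14 (3 measured), and on array 2 they ranged from -0.58 to -0.25 and from -0.09 to 0.34. The ovary marker yl was at -0.09 on array 1 and -0.18 on array 2. By limma 0 of these markers passed an adjusted p of 0.05, and 5 of the 17 measured had an unadjusted p under 0.05, against 5.72% of all genes (Tm2, TpnC73F, Acp36DE, Mst84B and Obp99a). With array 2 turned the count was 2, both among the muscle genes, against 4% of all genes.

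**Figure D3:**
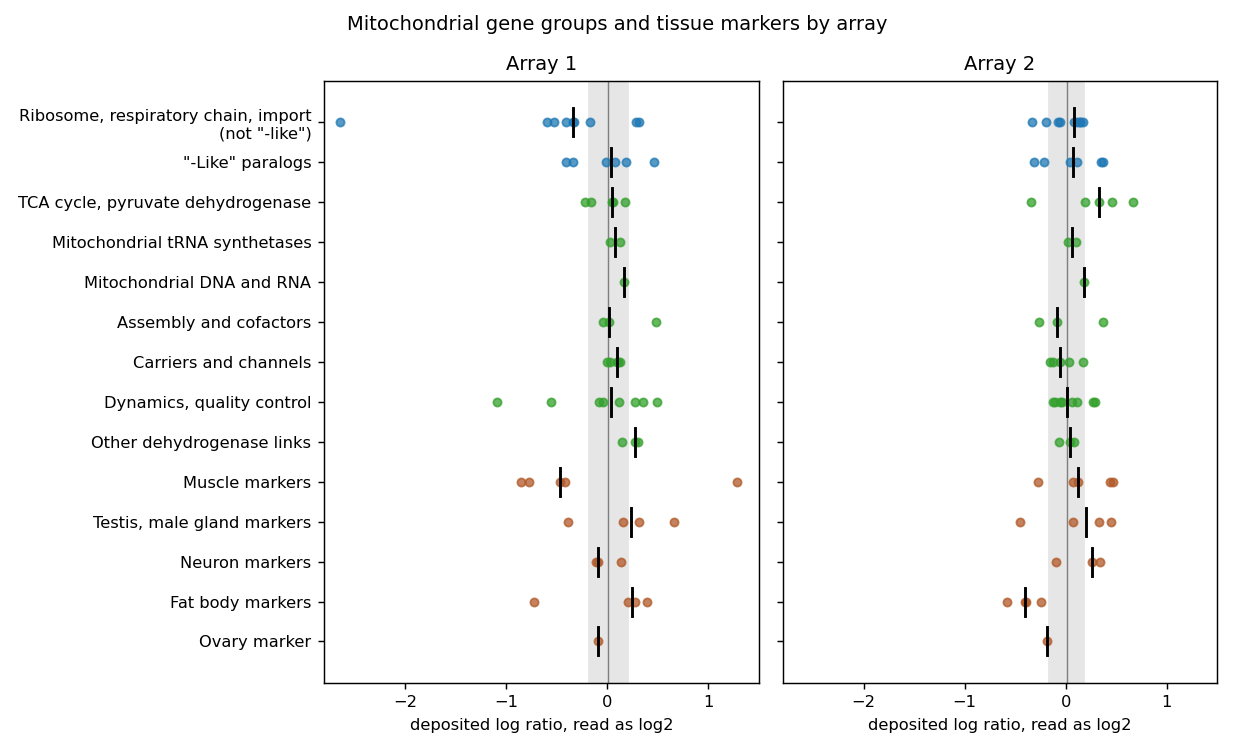
Gene values on array 1 (left) and array 2 (right), as deposited log ratios read as log2, for the 9 members without a "like" symbol, the 6 "like" paralogs, other mitochondrial gene lists (green) and tissue markers (brown). Black bars are medians and the grey band is the interquartile range of all genes. On array 1 the 9 members and the muscle markers have medians of -0.34 and -0.47, below the band. On array 2 they have medians of 0.085 and 0.12, inside it. The fat body markers have a median of 0.24 on array 1, above the band, and -0.40 on array 2, below it. Other medians also leave the band. On array 1 the testis and male gland markers and the other dehydrogenase links lie above it. On array 2 the testis and male gland markers, neuron markers, TCA cycle list and mitochondrial DNA and RNA list lie above it, and the ovary marker lies below.

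Other genes of mitochondrial function were read from 7 lists, of which 27 genes were measured. By limma 0 of the 27 passed an adjusted p of 0.05 under either coding of array 2, against 0% of all genes. At an unadjusted p under 0.05, limma counted 1 (Hsp60B), against 5.72% of all genes. With array 2 turned it counted 1, in the TCA cycle list and not Hsp60B, against 4% of all genes. On both arrays with one sign, 0 were 1.5-fold or more, against 0.126% of all genes. Their median was 0.10 on array 1 and 0.042 on array 2. On array 1, 7 of 27 were negative, against 49% of all genes, and on array 2, 11 of 27, against 48.5%. On array 1 their median was thus on the other side of 0 from that of the 15 members, which was not tested.

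In the TCA cycle list 5 genes were measured, with medians of 0.048 and 0.33. Ogdh, the catalytic subunit of 2-oxoglutarate dehydrogenase, was at -0.22 on array 1 and 0.67 on array 2, and the succinyl-CoA synthetase gene Scsalpha1 was at 0.062 and 0.33. The 2 mitochondrial tRNA synthetases lay close to 0 on both arrays, LeuRS-m at 0.12 and 0.10 and TrpRS-m at 0.025 and 0.019. The only measured gene of mitochondrial DNA and RNA metabolism, bsf, a pentatricopeptide repeat protein of mitochondrial RNA metabolism, was at 0.17 and 0.18. Of these 8 genes, 0 reached 1.5-fold on array 1, against 6.14% of all genes. On array 2 there was 1, Ogdh, against 4.75% of all genes.

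In the list of assembly factors and cofactors 3 genes were measured, with Coq9 at 0.19 ± 0.25 and Coq8 at 0.11 ± 0.53, both of ubiquinone synthesis. Carriers and channels had 5, with the uncoupling protein gene Ucp4C at 0.15 ± 0.04 and the mitoferrin gene mfrn, an iron importer, at -0.05 ± 0.11. Dynamics and quality control had 8, with the chaperonin gene Hsp60B at -1.09 on array 1 and -0.037 on array 2 and the fission gene Fis1 at -0.55 and -0.11. The Hsp60B paralogs Hsp60C and Hsp60D lay on the positive side, at means of 0.27 and 0.23. The list of other dehydrogenase links had 3, with Gpo3, a mitochondrial glycerol phosphate dehydrogenase, at 0.18 ± 0.14. Mics1, a member of that list that is not itself a dehydrogenase, was at 0.17 ± 0.19.

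By the RefSeq gene table, 8 of the 15 genes overlap the span of another gene. The overlap was taken from gene spans without strand or exons, and whether the clones separate transcripts of opposite strands is not stated. Whether the values of these 8 report the named gene alone is thus uncertain and was not tested. The 8 genes are COX6AL, COX7C, ND-13A, ND-51, ND-B8, UQCR-11L, mRpL13 and mRpL16. For 3 of them the overlapping gene was also measured: oys beside COX7C was at a mean of 0.02, Acsl beside UQCR-11L was at 0.00046 and CG4230 beside ND-13A was at 0.31. Close paralogs may also bind each other's clones, which was not tested for the 6 "like" genes.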

How the data were processed

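The authors deposited 1 signed log ratio for each of 16896 spots on each of 2 arrays, read here as log2 from its sign, spread and medians of -0.0009 and 0.0002. Background correction, normalization, base and direction are not stated, and spot intensities were not used. Adjacent spots were averaged as clones, then clones of a gene. Names came from the platform annotation, and all 2377 genes with 1 symbol matched RefSeq by Entrez identifier. The mean of both arrays was tested against 0 with limma 3.58.1 (R 4.3.3; lmFit, eBayes, Benjamini-Hochberg over 2377 genes). Errors are SDs over 2 arrays. The test was also run on simulated data with known changes, but its rates there are not reported, so its power with 2 arrays is not stated. No dye term could be fitted. All 15 members are named, and from each list the 2 genes of largest mean size; Hsp60C, Hsp60D and single markers were named with their values already known. The members and lists were chosen with earlier results of these data known. Array 1 held 64 spots over 3 in size and array 2 held 8. The number of arrays limits the precision. Alternatives were array 2 turned in sign, other scaling, robust eBayes, medians of clones, duplicate spots kept, filters on wide or discordant spots, other fold thresholds, a natural-log reading and each array alone. No sequences are printed.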

Additional observations from a re-analysis of the deposited data

How the results depend on the processing

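No member passed a limma adjusted p of 0.05 under any alternative (lowest 0.27, for mRpL13). Over all genes limma called 8 once clones with any spot beyond 3 in size were dropped (152 at an unadjusted p under 0.05), a filter that removed mRpL13, and 5 when both spots of a clone had to lie within 0.5 of each other (86 unadjusted), which left 8 of the 15 members, 5 of them with one sign on both arrays. The other alternatives called 0 genes, with 95 to 211 at an unadjusted p under 0.05. Members past the fold threshold on both arrays with one sign numbered 2 at a threshold of 0.322, and 0 to 2 on a single array at 1.5-fold. The median of the members was 0.085 without array 1 and -0.33 without array 2. With array 2 turned, COX6AL moved to -0.13, SdhBL to 0.10 and mRpL16 to 0.012, and the other 12 members kept their sign. All 15 kept it with other scaling. Signal over background is unknown. Each array's ratio already pairs its ethanol and water RNA, so the test of ratios against 0 used that pairing and no further pairing was fitted.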

Other observations

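A gene of protein import fell outside the name rule because its symbol starts in another way, and it was named after its value was seen. tomboy20, a paralog of the outer membrane receptor Tom20 that is known for expression in the testis, was at -0.13 on array 1 and -0.64 on array 2, for a mean of -0.38 ± 0.36 (limma adjusted p = 0.92, and 0.96 with array 2 turned). It lay on the same side as Tom40 on array 1 and on the other side on array 2. The extracts were of females, so what the spots of tomboy20 measured is uncertain.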
